A study of Mus musculus with 8 samples.

Results

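The 10 genes described here belong to the programme by which skeletal muscle breaks down its own protein. They are the ubiquitin ligase genes Fbxo32, Trim63, Fbxo30, Fbxo31 and Fbxo40, the forkhead transcription factor genes Foxo1, Foxo3 and Foxo4, and the stress regulators Klf15 and Ddit4. They were chosen by name, with earlier results of these data known, and each matched 1 of the 47643 genes in the expression table. All 10 passed the filter on low values and were among the 14229 genes tested. RNA from quadriceps muscle of C57BL/6 mice was sequenced, with 1 library per mouse. The comparison was between 4 Nup210-/- mice and 4 Nup210+/+ mice. Nup210 encodes a transmembrane nucleoporin, a protein of the nuclear pore. The Nup210-/- line is a constitutive knockout in which Cre driven from Hprt removed exon 2, so every cell type carries the deletion, and the study's mice were backcrossed to C57BL/6J. The age and sex of the sequenced mice are not given in the sources used here.

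In muscle, insulin and IGF1 activate the kinase Akt, which phosphorylates the FoxO factors and keeps them out of the nucleus. When this signal drops, or when glucocorticoids rise, FoxO proteins and the glucocorticoid receptor switch on ubiquitin ligases that mark muscle proteins for the proteasome. These genes are known to respond to fasting, disuse, glucocorticoids and the time of day. A high mRNA level of a ligase is a common readout of this programme, but it does not measure protein breakdown.

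The expression unit is TPM, an estimate of transcript number relative to the library total that accounts for transcript length, so levels of different genes can be compared. For the test, TPM were scaled between libraries, 1 was added and log2 was taken. The genotypes were compared with limma, with p-values adjusted by Benjamini-Hochberg over the whole table. A fold change stands for Nup210-/- over Nup210+/+ on this scale, which understates changes of genes with a low TPM. The number of reads is unknown from TPM, so the error of a value can be judged only from how the 4 mice of each genotype differ.

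The promoters of Trim63 and Klf15 are shown because they hold matches to a searched motif. Those in Trim63 were of FoxO and the glucocorticoid receptor, and those in Klf15 only of clock factors. The Fbxo31 promoter is shown because this gene was the member past the adjusted threshold. RefSeq windows on GRCm38, from 250 bases before to 50 after the start site, matched 8 of the 10 genes in 9 windows. Fbxo32 and Foxo4 were not matched. Sequences run 5′ to 3′ on the strand of the gene. They are the 250 bases before the start at chr4:134314870-134315119 (plus strand) for Trim63, the same plus 3 transcribed bases at chr6:90462326-90462578 (plus strand) for Klf15, and the 250 bases at chr8:121578807-121579056 (minus strand) for Fbxo31. Capitals mark matches to a searched motif.
Trim63: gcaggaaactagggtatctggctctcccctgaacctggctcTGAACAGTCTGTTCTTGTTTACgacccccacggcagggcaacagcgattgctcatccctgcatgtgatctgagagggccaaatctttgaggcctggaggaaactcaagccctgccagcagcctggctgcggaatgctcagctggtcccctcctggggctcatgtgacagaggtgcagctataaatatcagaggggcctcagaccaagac
Klf15: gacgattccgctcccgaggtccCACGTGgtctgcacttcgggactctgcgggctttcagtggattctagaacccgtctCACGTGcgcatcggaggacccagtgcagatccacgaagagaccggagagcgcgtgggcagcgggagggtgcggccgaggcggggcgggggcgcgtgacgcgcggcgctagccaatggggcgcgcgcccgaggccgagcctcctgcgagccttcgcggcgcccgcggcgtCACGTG
Fbxo31: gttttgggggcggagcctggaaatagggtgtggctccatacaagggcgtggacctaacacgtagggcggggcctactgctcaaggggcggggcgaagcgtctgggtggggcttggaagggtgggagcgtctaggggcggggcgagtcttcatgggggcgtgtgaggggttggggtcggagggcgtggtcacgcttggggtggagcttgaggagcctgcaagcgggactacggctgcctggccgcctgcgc

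Both strands were searched for 3 motifs. These were GTAAACA, bound by FoxO proteins, CACGTG, the E-box bound by clock factors, and the glucocorticoid receptor palindrome of AGAACA and TGTTCT separated by any 3 bases, with at most 2 mismatches. The Trim63 window held TGAACAGTCTGTTCT, which is 1 mismatch from the palindrome, from 209 to 195 bases before the start. The reverse complement of the FoxO motif, TGTTTAC, followed it without a gap, from 194 to 188 bases before the start. The Klf15 window held CACGTG at 3 places, beginning 228, 172 and 3 bases before the start. No match to any of the 3 motifs was found in the other 7 windows, and the Fbxo31 sequence, with a GC content of 68%, was among them. Among all 32851 RefSeq promoter windows of this length, 3.65% held the FoxO motif, 1.84% the palindrome and 7.15% the E-box. These matches describe letters in a window and were not tested for binding.

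The mRNA of the targeted gene does not separate the genotypes downwards. Nup210 TPM was 9.54, 10.79, 11.93 and 8.81 in the Nup210-/- libraries and 5.71, 10.11, 9.19 and 6.71 in the Nup210+/+ libraries. The groups overlapped, and the log2 fold change of 0.44 (SE 0.147) did not pass the adjusted threshold (limma unadjusted p = 0.0146, adjusted p = 0.231). A gene total need not fall when 1 exon is deleted, and reads by exon were not used here, so the table does not check the genotype labels and every direction below rests on them. The study reported a total loss of Nup210 protein in this line. It also reported the knockout in muscle by immunoprecipitation and immunofluorescence, data that were not analysed here.

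Single libraries stood apart. Among Nup210+/+ mice, replicate 3 had the highest summed TPM of 6 adipocyte markers, 713 against 231 to 424 in the other 7 libraries. It also led for the sums of 8 leukocyte markers, 5 fibroblast markers, 5 endothelium markers, and 5 smooth muscle and pericyte markers. It did not lead for every single marker in them, and the endothelium sum was close, 84.9 against 64.7 to 81.6 elsewhere. Its sum of 8 muscle fibre markers was the lowest at 90975. Nup210+/+ replicate 2 held granulocyte precursor markers at a summed TPM of 382, against 0.31 to 2.12 elsewhere. All 8 fibre markers were abundant in every library, the lowest value being 998 TPM for Myh1.

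By level, the genes spanned a wide range, with ligases and FoxO factors interleaved. Mean TPM over the 8 libraries was 208 for Trim63, 192 for Fbxo40 and 87.4 for Fbxo32. It was 61.8 for Foxo4, 54.0 for Fbxo31 and 40.5 for Klf15. The lowest values were 11.1 for Ddit4, 10.8 for Foxo3, 9.71 for Fbxo30 and 7.73 for Foxo1. Trim63 exceeded Fbxo40 in 5 of 8 libraries, which were all Nup210-/- libraries and Nup210+/+ replicate 3. In Nup210-/- libraries Trim63 was at 208 to 232 TPM and Fbxo40 at 180 to 194, without overlap. In Nup210+/+ libraries the ranges, 165 to 254 and 171 to 221, overlapped. Fbxo40 exceeded Fbxo32 in all 8 libraries without overlap of ranges, and Klf15 exceeded Ddit4 likewise. From Fbxo32 through Foxo4 and Fbxo31 to Klf15, each gene exceeded the next in all 8 libraries although ranges across libraries overlapped. The 4 lowest genes overlapped and had no fixed order, with neighbours in the stated order in 4 to 7 of 8 libraries.

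**Figure D1:**
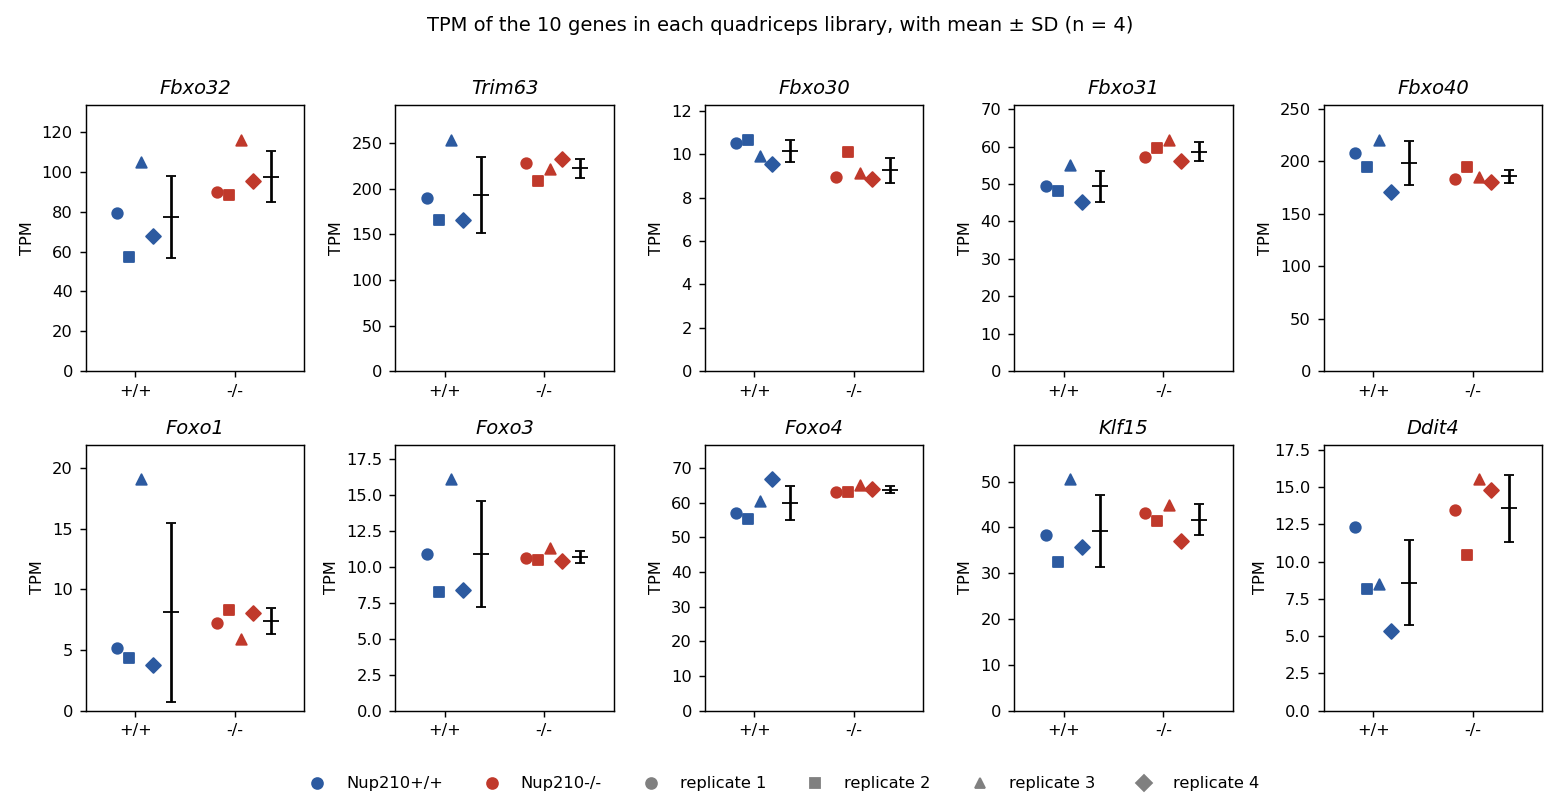
TPM (vertical axes, from 0) of the 10 genes in each of the 8 quadriceps libraries, by Nup210 genotype, with symbols for replicate numbers and black bars for mean ± SD (n = 4). Fbxo31 shows no overlap, while Nup210+/+ replicate 3 (blue triangle) sits above the other Nup210+/+ libraries in 7 of the panels.

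Across the 10 genes, 9 had a higher estimate in Nup210-/- muscle and 1 a lower one. The median log2 fold change was 0.21, against -0.01 for the whole table. At an adjusted p of 0.05, 1 of the 10 was called, where 0.112% of all genes were called. At an unadjusted p of 0.05, 4 of the 10 were higher and 0 lower, where the shares among all genes were 7% higher and 7.18% lower. The 4 were Fbxo32, Trim63, Fbxo31 and Ddit4. Scaled values did not overlap between genotypes for 1 gene, Fbxo31, where 4.78% of all genes were higher without overlap and 4.6% lower.

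Fbxo31 was the 1 gene of the 10 called higher in Nup210-/- quadriceps. It encodes an F-box protein, the substrate-binding part of an SCF (Skp1, cullin, F-box) ligase, best known for directing cyclin D1 to the proteasome. The gene lies at chr8:121549440-121578806 on the minus strand of GRCm38. Its TPM was 57.1, 59.6, 61.8 and 56.1 in Nup210-/- and 49.4, 48.1, 55.1 and 45.2 in Nup210+/+ libraries. Every Nup210-/- library was above every Nup210+/+ library. The means were 58.6 ± 2.56 and 49.4 ± 4.14 TPM (SD, n = 4 each). The fold change was 1.26 (95% interval 1.17 to 1.36), a log2 fold change of 0.34 (SE 0.0473). The gene was 1 of 16 called across the table, just past the threshold (limma adjusted p = 0.0497), and the two-sided exact permutation p over 70 labelings was 0.0286, the smallest possible. Leaving out any 1 of the 8 libraries ended the call, with adjusted p from 0.0616 without Nup210+/+ replicate 3 to 0.175 without Nup210-/- replicate 1. The direction was kept in all 20 other settings tried, but the call was kept in 5 of them. Every other scaling lost it, with limma adjusted p of 0.205 for TPM as deposited (log2 fold change 0.24), 0.0702 for upper-quartile scaling and 0.103 without mitochondrial and top 20 genes. The ratio of mean TPM as deposited was 1.19, so part of the fold change of 1.26 came from scaling.

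Fbxo32 and Trim63 are the 2 ligases most used to follow muscle atrophy. Fbxo32 encodes atrogin-1, an F-box protein that targets MyoD and the translation factor eIF3f. Fbxo32 TPM was 90.0, 88.3, 116 and 95.6 in Nup210-/- and 79.3, 57.3, 105 and 67.9 in Nup210+/+ libraries. The groups overlapped through Nup210+/+ replicate 3, since the other 3 Nup210+/+ values lay below all Nup210-/- values. The means were 97.5 ± 12.8 and 77.3 ± 20.4 TPM (SD, n = 4 each). The log2 fold change of 0.45 (95% interval 0.12 to 0.78) did not pass the adjusted threshold (limma p = 0.0134, adjusted p = 0.224, two-sided exact permutation p = 0.0571). Exons of Fbxo32 overlap Gm15943 on the opposite strand, which was at 0.79 to 3 TPM. Whether RSEM used the strand is not stated in the sources used here.

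Trim63 encodes MuRF1, a RING ligase that binds the sarcomere and marks myosin heavy chain and other thick filament proteins. Trim63 TPM was 228, 208, 222 and 232 in Nup210-/- and 190, 165, 254 and 165 in Nup210+/+ libraries. Nup210+/+ replicate 3 was the highest of all 8 libraries, and the other 3 Nup210+/+ libraries were the lowest. The means were 222 ± 10.5 and 193 ± 41.6 TPM (SD, n = 4 each). Its log2 fold change was 0.32 (95% interval 0.08 to 0.56, limma p = 0.0151, adjusted p = 0.235, two-sided exact permutation p = 0.0857). With TPM as deposited it was 0.22, and the unadjusted p of both Trim63 and Fbxo32 was then above 0.05.

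Fbxo30 and Fbxo40 gave estimates close to 0. Fbxo30 encodes MUSA1, a ligase restrained by BMP signalling in muscle. Its TPM was 8.94, 10.12, 9.12 and 8.84 in Nup210-/- and 10.51, 10.66, 9.91 and 9.57 in Nup210+/+ libraries. The ranges overlapped, and the log2 fold change was -0.04 (95% interval -0.21 to 0.13, limma adjusted p = 0.85). Fbxo40 is expressed mainly in striated muscle, where its product targets the insulin receptor substrate IRS1. Fbxo40 TPM was 184, 194, 185 and 180 in Nup210-/- and 208, 195, 221 and 171 in Nup210+/+ libraries. The Nup210-/- values lay inside the Nup210+/+ range. The log2 fold change was 0.01 (95% interval -0.12 to 0.13, limma adjusted p = 0.973), and its sign turned in 7 of the 20 other settings, TPM as deposited among them.

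**Figure D2:**
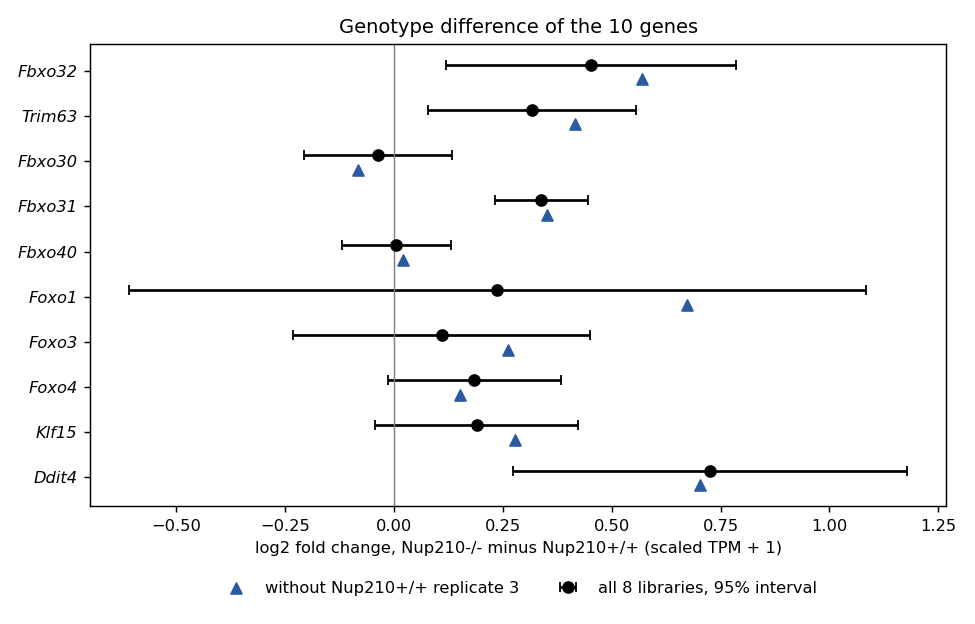
Log2 fold change of the 10 genes, Nup210-/- minus Nup210+/+ on the log2(scaled TPM + 1) scale, from limma, with 95% intervals for all 8 libraries (black) and the estimate without Nup210+/+ replicate 3 (blue triangles). The intervals of Fbxo32, Trim63, Fbxo31 and Ddit4 lie above 0, and the Foxo1 estimate moves from 0.24 to 0.67 when that library is left out.

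Foxo1, Foxo3 and Foxo4 encode the FoxO factors that act on the ligase genes. None of the 3 passed the test. Foxo1 TPM was 7.19, 8.30, 5.91 and 8.07 in Nup210-/- and 5.18, 4.33, 19.06 and 3.76 in Nup210+/+ libraries. Nup210+/+ replicate 3 was 5.07-fold above the lowest library and the other 3 Nup210+/+ libraries were below all Nup210-/- libraries. The means were 7.37 ± 1.08 and 8.08 ± 7.34 TPM (SD, n = 4 each), with a log2 fold change of 0.24 (95% interval -0.61 to 1.08, limma adjusted p = 0.804). The mean TPM was lower and the mean log2 value higher in Nup210-/- muscle, so the direction depends on the scale. Exons of Foxo1 overlap Gm20402 on the opposite strand, which was listed at 0 in 7 libraries, Nup210+/+ replicate 3 among them, and at 0.34 in the other.

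Foxo3, the FoxO member most often linked to Fbxo32 induction, gave TPM of 10.57, 10.49, 11.29 and 10.36 in Nup210-/- libraries. It gave 10.84, 8.22, 16.06 and 8.39 in Nup210+/+ libraries. Nup210+/+ replicate 3 was again the highest library and the groups overlapped (log2 fold change 0.11, 95% interval -0.23 to 0.45, limma adjusted p = 0.772). Its mean TPM was 10.7 in Nup210-/- and 10.9 in Nup210+/+ libraries, so the direction depends on the scale as for Foxo1. The log2 fold change was 0.26 without Nup210+/+ replicate 3 (limma unadjusted p = 0.0273, against 0.487 with all libraries). It was 0.00397 without Nup210+/+ replicate 2. Nup210+/+ replicate 3, the highest library for Foxo3, was left out after its values were seen. Foxo4, the X-linked member, gave TPM of 63.0, 63.0, 65.0 and 64.0 in Nup210-/- libraries. In Nup210+/+ libraries Foxo4 was at 57.2, 55.3, 60.5 and 66.8, and here replicate 4 was the one above the Nup210-/- range. Its log2 fold change was 0.18 (95% interval -0.01 to 0.38, limma adjusted p = 0.382). Foxo4 supplied 77.0 to 79.1% of the summed FoxO TPM in Nup210-/- libraries. Foxo4 supplied 78.1, 81.5, 63.3 and 84.6% in Nup210+/+ libraries 1 to 4, so the composition stood apart in replicate 3, where Foxo1 made up 19.9%.

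Klf15 and Ddit4 are induced by glucocorticoids and act beside FoxO. Klf15 is a transcription factor that promotes amino acid catabolism. Klf15 TPM was 43.2, 41.4, 44.9 and 37.0 in Nup210-/- and 38.4, 32.4, 50.5 and 35.8 in Nup210+/+ libraries. The groups overlapped, and the log2 fold change was 0.19 (95% interval -0.04 to 0.42, limma adjusted p = 0.431). It was 0.28 without Nup210+/+ replicate 3 (limma unadjusted p = 0.0123, against 0.0989 with all libraries) and 0.11 without Nup210+/+ replicate 2. Nup210+/+ replicate 3, the library with the highest Klf15 TPM, was left out after its values were seen. Klf15 lies 538 kb from Nup210 on chromosome 6, at 90462576 to 90475238 against 91013068 to 91116829 in GRCm38.

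Ddit4 encodes REDD1, which restrains the growth kinase mTORC1 through the TSC1-TSC2 complex. Ddit4 TPM was 13.47, 10.47, 15.53 and 14.83 in Nup210-/- and 12.35, 8.15, 8.52 and 5.36 in Nup210+/+ libraries. Groups overlapped because Nup210+/+ replicate 1 exceeded Nup210-/- replicate 2. The means were 13.6 ± 2.24 and 8.60 ± 2.87 TPM (SD, n = 4 each). It had the highest fold change of the 10 genes, 1.65 (95% interval 1.21 to 2.26), without passing the adjusted threshold (unadjusted limma p = 0.00546, adjusted p = 0.181, two-sided exact permutation p = 0.0571). Unlike Fbxo32, Trim63 and Foxo1, Ddit4 in Nup210+/+ replicate 3 was in the middle of its genotype.

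**Figure D3:**
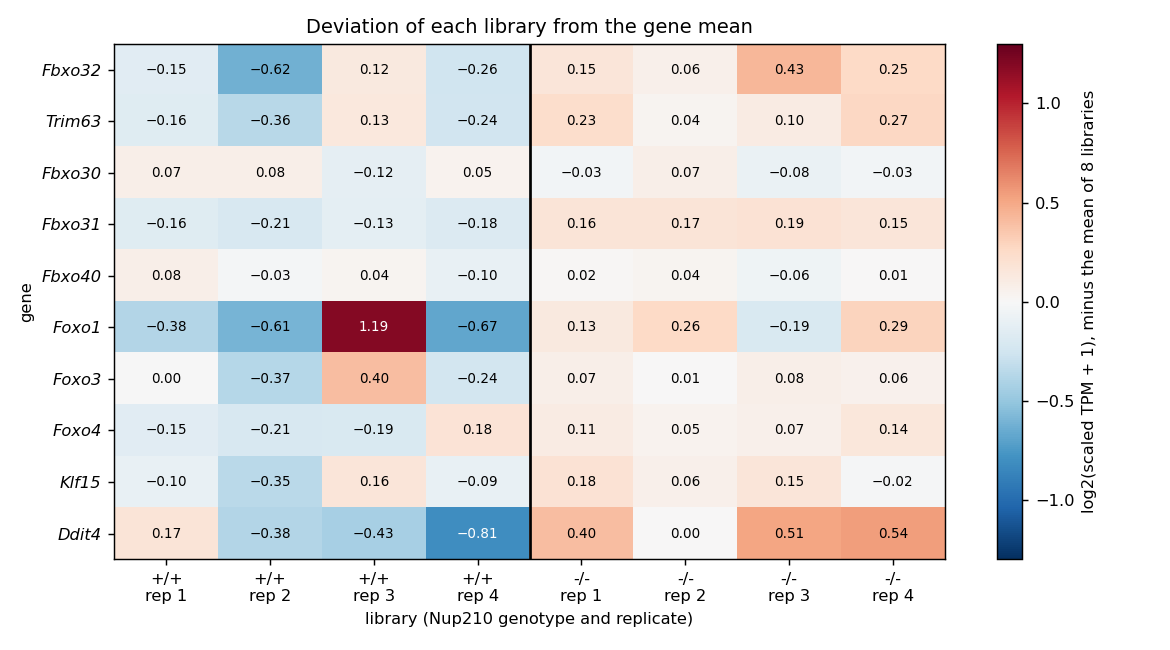
Deviation of log2(scaled TPM + 1) from the mean of the 8 libraries for each gene (rows) and library (columns, by Nup210 genotype and replicate). The Foxo1 value of Nup210+/+ replicate 3, 1.19 above the mean, is the most extreme cell, and Nup210+/+ replicate 2 is below the mean for 9 of the 10 genes.

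The spread lay on the Nup210+/+ side. On the log2 scale, the SD of the Nup210+/+ libraries was larger than that of the Nup210-/- libraries for 10 of the 10 genes, against 62.8% of the 14229 genes tested. The median ratio of these SDs was 2.02 for the 10 genes and 1.26 for the 14152 genes that gave a ratio. After scaling, replicate 3 was the highest Nup210+/+ library for 6 of the 10 genes, against 25.8% of all genes tested. Replicate 2 was the lowest for 6 of the 10, against 24.8%. Without replicate 3, which was left out after its values were seen, 7 of the 10 genes were higher at an unadjusted p of 0.05, against 6.61% of all genes, and 6 did not overlap, against 7.26%. The genes without overlap were then Fbxo32, Trim63, Fbxo31, Foxo1, Foxo3 and Klf15, but 0 passed an adjusted p of 0.05 (limma). Without replicate 2, the library with granulocyte precursor markers, 4 of the 10 were higher at an unadjusted p of 0.05, against 6.3% of all genes, 1 did not overlap, against 6.54%, and 0 passed the adjusted threshold (limma). The log2 fold change of Foxo1 was then 0.08, that of Foxo3 0.00397 and that of Klf15 0.11.

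Markers of other cells moved with the same comparison. The summed TPM of 8 leukocyte markers was 218 to 241 in Nup210-/- and 249 to 492 in Nup210+/+ libraries. The sum of 5 fibroblast markers was 569 to 682 against 700 to 1114, also without overlap. The sum of 8 fibre markers was 97709 to 106412 against 90975 to 98407. All 8 leukocyte and all 5 fibroblast markers had lower estimates (7 and 3 at unadjusted p, median log2 fold change -0.59 and -0.34), and 1 leukocyte marker, Cd52, was called. All 8 fibre markers had higher estimates, 3 at unadjusted p, with a median log2 fold change of 0.18, beside 0.21 for the 10 genes. The fibre list holds mostly genes of fast fibres, such as Myh1, and no slow myosin gene, so it does not measure all fibres. Median log2 fold changes were -0.19 for adipocyte, -0.08 for endothelium, -0.08 for smooth muscle and pericyte, 0.12 for satellite cell, -0.14 for nerve sheath and -1.45 for granulocyte precursor markers, with 0 to 1 gene of each at unadjusted p and 0 called by limma. In whole muscle, fewer cells of a type cannot be told apart from less RNA per cell. The part of tissue composition in the values of the 10 genes was not tested.

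Members were compared in pairs across the 8 libraries on the log2 scale. Of 45 pairs, 34 had a positive Pearson correlation and 11 a negative one. At an adjusted p of 0.05, 0 pairs passed by Pearson's r or by Spearman's rho (exact permutation tests), while 14 and 11 did so unadjusted. Fbxo32 and Trim63 gave r = 0.898 (exact permutation p = 0.00218, adjusted 0.0592) and rho = 0.857 (exact permutation p = 0.0107, adjusted 0.138), and r = 0.679 without the 2 libraries farthest from the median. Foxo1 and Foxo3 gave r = 0.895 (exact permutation p = 0.00263, adjusted 0.0592) and rho = 0.762 (exact permutation p = 0.0368, adjusted 0.165), and r = 0.711 without the 2 farthest libraries. Fbxo32 and Klf15 gave r = 0.881 (exact permutation p = 0.00546, adjusted 0.0614) and rho = 0.714 (exact permutation p = 0.0576, adjusted 0.185), and r = 0.574 without the 2 farthest libraries. With genotype means subtracted, r was 0.781, 0.890 and 0.831 for these pairs. Without Nup210+/+ replicate 3, 9 pairs passed by r and 0 by rho (lowest adjusted p 0.0923, 14 pairs unadjusted, exact permutation tests). The 9 all fell among Fbxo32, Trim63, Fbxo31, Foxo3 and Klf15, and none of these includes Foxo1, Foxo4 or Ddit4. Genotype means were not subtracted for these 9 pairs, and all genes in them were without overlap of genotypes once that library was left out. A genotype difference shared by both genes of a pair therefore enters its r, and its part was not tested. Libraries share their scaling, so a pair is not free of a common factor. The share of correlated pairs among other genes was not computed. The counts above are therefore not shown to be particular to these genes.

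**Figure D4:**
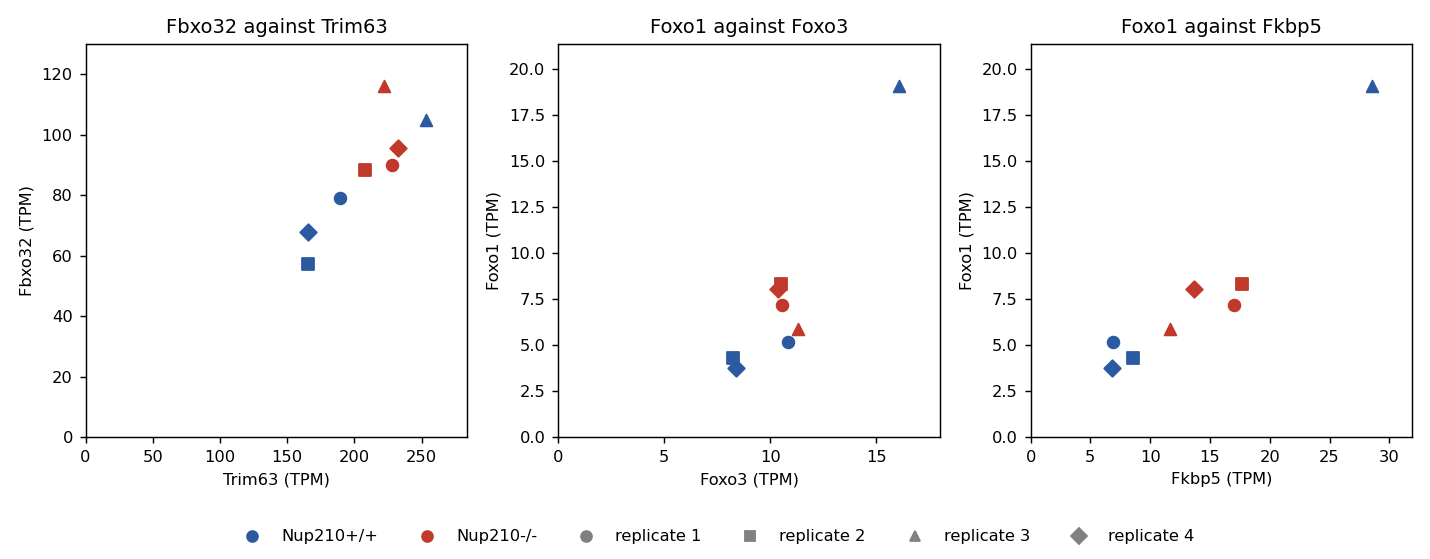
TPM of Fbxo32 against Trim63 (left), Foxo1 against Foxo3 (middle) and Foxo1 against Fkbp5 (right), 1 point per library, coloured by Nup210 genotype with symbols for replicate numbers. Nup210+/+ replicate 3 (blue triangle) stands alone at the top right for Foxo1 with 19.06 TPM, while Fbxo32 and Trim63 run along a line through both genotypes.

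Genes with the most similar pattern were taken by Pearson r to a member over 8 libraries after genotype means were subtracted, a description without a test. For Fbxo32 they were Col5a1 (r = 0.977), Apol10b (0.976) and Agk (0.972), among 52 genes above 0.9. For Trim63 they were Ghr, the growth hormone receptor (0.979), Uchl1 (0.975) and Gm15519 (0.969), among 68. For Klf15 they were Ehd3 (0.979), Rbp7 (0.975) and Brwd1 (0.968), among 72. Ddit4 had fewer such genes, 31, led by Bank1 (0.967), 4931406P16Rik (0.966) and Fntb (0.953). With 8 libraries, r values this high are found for many of 14229 genes.

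Other genes of the programme were taken from 5 lists, also chosen with earlier results of these data known. None of the 101 genes tested was called at an adjusted p of 0.05 by limma, and 24 were higher and 4 lower at an unadjusted p of 0.05, where 7% and 7.18% of all genes were. The median log2 fold change over the 101 was 0.07. Of 25 ligase partners and other muscle ubiquitin ligases, 7 were higher and 0 lower (median 0.09). Mul1, a mitochondrial ligase, and Znrf2 had the lowest estimates at -0.14 and -0.06, and Fbxo21 and Cblb, a ligase that targets IRS1 in unloaded muscle, the highest at 0.30 and 0.26. Cblb TPM was 4.22, 4.13, 4.66 and 4.56 in Nup210-/- and 3.15, 3.37, 6.34 and 2.84 in Nup210+/+ libraries, so only replicate 3 put the groups in overlap. The Cblb log2 fold change was 0.43 without that library, which was left out after its values were seen.

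Of 20 FoxO target genes, 5 were higher and 0 lower at unadjusted p (median 0.08). Pdk4, which blocks pyruvate oxidation during fasting, had the highest estimate, a log2 fold change of 1.04 (SE 0.593, limma adjusted p = 0.451). It was 1.57 without Nup210+/+ replicate 3 (limma unadjusted p = 0.00985, against 0.114 with all libraries) and 0.56 without Nup210+/+ replicate 2. Nup210+/+ replicate 3 was left out after its values were seen. Pdk4 TPM was 188.5, 120.0, 276.6 and 312.7 in Nup210-/- and 72.2, 39.6, 361.3 and 135.3 in Nup210+/+ libraries. The span within Nup210+/+ mice was wider than the difference between genotypes. Cdkn1a, the cell cycle inhibitor p21, was at 19.1, 22.9, 15.01 and 21.6 TPM in Nup210-/- and 13.5, 13.02, 17.5 and 14.3 in Nup210+/+ libraries (log2 fold change 0.49, unadjusted p = 0.0064, adjusted p = 0.189, limma). Angptl4, an inhibitor of lipoprotein lipase, and Irs2, an insulin receptor substrate, had the lowest estimates, -0.18 and -0.15, and the Angptl4 sign turned without Nup210+/+ replicate 3.

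Of 24 genes of insulin and IGF1 signalling, 5 were higher and 3 lower at unadjusted p (median 0.01). Igf1, the growth factor upstream of Akt, was at 9.20, 10.22, 10.52 and 7.27 TPM in Nup210-/- and 13.71, 13.12, 25.47 and 14.63 in Nup210+/+ libraries. All Nup210-/- values were lower, with a log2 fold change of -0.66 (SE 0.173, unadjusted p = 0.00411, adjusted p = 0.169, limma). Irs1, the substrate of Fbxo40, gave -0.46 (adjusted p = 0.471, limma). It gave -0.71 without Nup210-/- replicate 3 (limma unadjusted p = 0.0105, against 0.129 with all libraries) and -0.23 without Nup210-/- replicate 4. Nup210-/- replicate 3 had the highest Irs1 value, 17.98 TPM, and its omission was picked after the values were seen. The highest estimates were Sgk1, a kinase that phosphorylates FoxO proteins (0.43), and Tsc1, a partner in mTORC1 inhibition (0.18), both without overlap of genotypes on the scaled values and with adjusted p of 0.258 and 0.284 (limma).

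Of 20 genes of the glucocorticoid and Klf15 response, 7 were higher and 0 lower at unadjusted p, with the highest median of the 5 lists, 0.18. Among the 7 were Sgk1, also counted with insulin and IGF1 signalling, and Per1, also counted with the clock genes. The lists are therefore not separate sets of genes. Fkbp5, a co-chaperone of the glucocorticoid receptor and a sensitive target of it, had the largest estimate, a log2 fold change of 0.56 (SE 0.365, limma adjusted p = 0.508). Fkbp5 TPM was 17.0, 17.7, 11.6 and 13.7 in Nup210-/- and 6.85, 8.56, 28.51 and 6.77 in Nup210+/+ libraries. As with Foxo1, 3 Nup210+/+ libraries were below all Nup210-/- libraries and replicate 3 was above them all. The Fkbp5 log2 fold change was 0.97 without replicate 3 (limma unadjusted p = 0.000236, against 0.162 with all libraries) and 0.38 without Nup210+/+ replicate 1. Replicate 3 was left out after its values were seen. Cebpd followed at 0.51 (unadjusted p = 0.00882, adjusted p = 0.203, limma). Nr3c1, the glucocorticoid receptor itself, gave -0.16, and Hif1a gave -0.19. Of 15 clock genes, 14 were tested, and 2 were higher and 1 lower at unadjusted p (median 0.11). Ciart and Per1 had the highest estimates (0.46 and 0.36) and Cry1 and Per2 the lowest (-0.23 and -0.17). Mice had free access to food per the study's methods. The hour at which muscle was taken is not given in the sources used here, and its part was not tested.

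**Figure D5:**
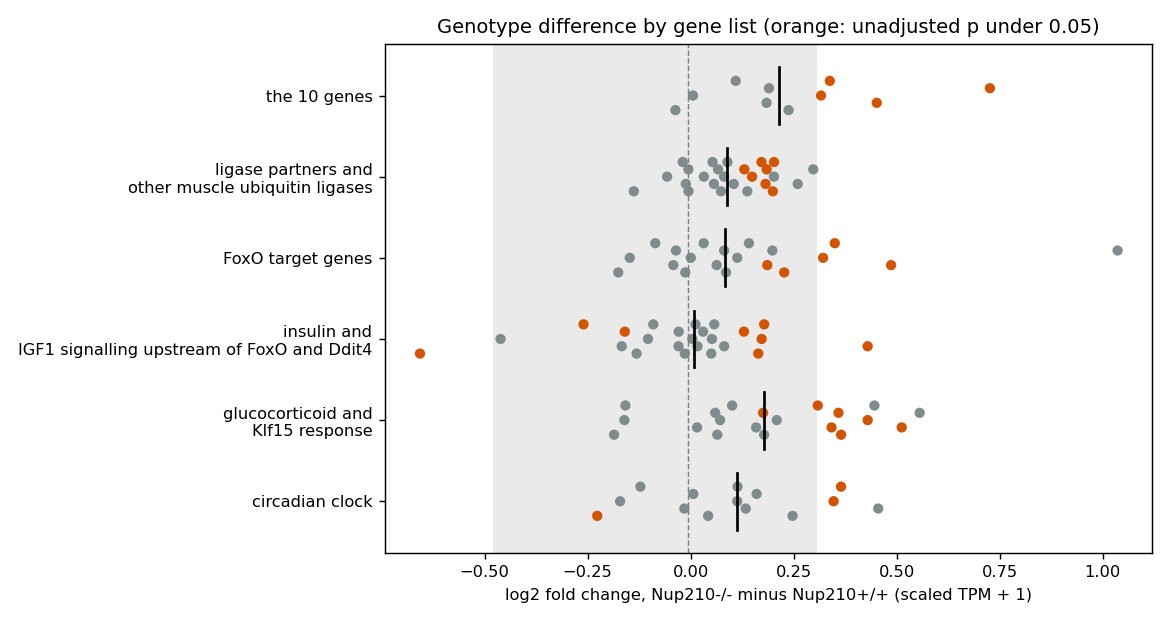
Log2 fold change (Nup210-/- minus Nup210+/+, log2(scaled TPM + 1)) of each gene in the 10 genes and the 5 lists. Black lines are medians, orange points have an unadjusted p under 0.05, the dashed line is the median and the shaded band the central 90% of all 14229 genes (-0.48 to 0.30). The medians of the 10 genes (0.21) and of the glucocorticoid and Klf15 response (0.18) are the highest.

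Replicate 3 was the highest Nup210+/+ library for 40 of the 101 pathway genes, 39.6%, against 25.8% of all genes. By list, this held for 10 of 20 glucocorticoid and Klf15 genes, 7 of 14 clock genes, 9 of 20 FoxO targets, 8 of 24 insulin and IGF1 genes and 7 of 25 ligase genes. Its marker sums for adipocytes, leukocytes, fibroblasts, endothelium, and smooth muscle and pericytes were also the highest. Their part in these values was not tested.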

How the data were processed

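Polyadenylated RNA from quadriceps of 4 Nup210-/- and 4 Nup210+/+ mice was made into directional libraries and sequenced from one end (1 library per mouse). The authors trimmed reads with cutadapt 2.3, aligned them to mm10 with STAR 2.7.0d and estimated expression with RSEM 1.3.1 and Ensembl 84 annotation (tool versions per the submitters' processing notes and the study's methods). The deposited values are TPM per gene and library, with replicates not pooled. The study compared genotypes with DESeq2 on estimated counts, which were not used here. TPM sum to a fixed total in each library, so depth is unknown and a gene that takes more of a library lowers the rest.

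Libraries were brought to a common scale by median-of-ratios factors from the 15225 genes above 0 in all of them, and log2(scaled TPM + 1) was taken. Genes whose TPM averaged 0.5 or more entered a limma 3.58.1 model in R 4.3.3 (lmFit, then eBayes with a trend on expression level) with a single genotype term, and p-values were adjusted by Benjamini-Hochberg. Single genes were compared by two-sided exact permutation tests over 70 labelings, and pairs of genes over 40320 pairings of the 8 libraries. Where a library was left out, all pairings of the remaining libraries were used. Ranks for Spearman's rho were taken with SciPy 1.17.1. Coordinates are from GENCODE M21 on GRCm38 and promoters from RefSeq. Figures were drawn with matplotlib 3.10.9.

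The 10 genes, the 5 pathway lists and the 9 marker lists were chosen with earlier results of these data known. The genes named were the 10, Nup210, from each pathway list the genes past an adjusted p of 0.05 (0) and the 2 with the largest and the 2 with the smallest log2 fold change, and the 3 genes most correlated with Fbxo32, Trim63, Klf15 and Ddit4. The marker Cd52 and the 2 overlapping gene models were named after their values were seen. The alternatives tried were smaller pseudocounts (0.1 and 0.5), other filters (a TPM above 0 in any library, or an average TPM of 0.1 or 1), TPM as deposited, upper-quartile scaling, scaling without mitochondrial genes and the 20 highest genes, eBayes without trend, robust eBayes, library weights, the replicate number as a block and each library left out in turn.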

Additional observations from a re-analysis of the deposited data

Results flagged for a closer look

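A sample was examined where the gap between the highest or lowest of 4 libraries and its neighbour took an unusually large part of the range of the genotype (Dixon's test at 95%). Of 80 groups examined (the named genes and marker sums in each genotype), 7 met this, where chance gives about 4 (1 in 20 groups).

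Nup210+/+ replicate 3 was the sample far from the others for 5 genes. For Foxo1 the ratio was 0.907 (19.06 TPM, others 3.76 to 5.18). For Fkbp5 it was 0.918 (28.51 TPM, others 6.77 to 8.56). For Angptl4 it was 0.889 (8.44 TPM, others 3.41 to 3.97). For Igf1 it was 0.878 (25.47 TPM, others 13.12 to 14.63). For Cblb it was 0.849 (6.34 TPM, others 2.84 to 3.37). In Nup210-/- mice, Per1 was low in replicate 2, with a ratio of 0.894 (21.67 TPM, others 24.78 to 25.15). The summed TPM of granulocyte precursor markers was high in Nup210+/+ replicate 2, with a ratio of 0.995 (381.69, others 0.31 to 2.12).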

How the results depend on the processing

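The sign of the estimate was kept in all 20 alternatives for 9 of the 10 genes, and 178 of 200 combinations of gene and alternative kept both sign and side of the threshold. The exceptions were Fbxo40, at -0.0888 with TPM as deposited, -0.0323 with upper-quartile scaling, -0.0300 without mitochondrial and top 20 genes, -0.0197 with library weights and -0.0258 to 0.0326 as libraries were left out, and Fbxo31, which kept its sign and lost its call in 15. Angptl4 ran from -0.264 to 0.0447 as libraries were left out. Across all genes, the 16 calls became 1 with any TPM above 0, 0 at a mean TPM of 0.1, 27 at a mean TPM of 1, 7 with upper-quartile scaling, 10 without mitochondrial and top 20 genes, 0 without the trend, 84 with library weights and 0 to 10 as libraries were left out. Of the 10 genes, 0 were called with any TPM above 0, TPM as deposited, a mean TPM of 0.1, upper-quartile scaling, without mitochondrial and top 20 genes, without the trend, with the replicate block or with any library left out (limma), while 2 to 7 were at an unadjusted p of 0.05. TPM as deposited gave 2 such genes, and leaving out libraries gave 4 to 7, with 1 to 6 genes without overlap. Pathway genes at unadjusted p numbered 28, against 10 with TPM as deposited, 17 with upper-quartile scaling, 15 without mitochondrial and top 20 genes and 15 to 32 as libraries were left out. Scaling moved the share of unadjusted calls that were higher from 49.4% to 16.6% with TPM as deposited, 32.8% with upper-quartile scaling and 37.4% without mitochondrial and top 20 genes. The median of all genes was then -0.08, -0.04 and -0.04, and -0.01 in the main scaling. Correlated pairs numbered 4 with TPM as deposited and 0 to 9 as libraries were left out, alternatives chosen after the data were seen. Libraries with the same replicate number had deviations close to uncorrelated over all genes tested (r from -0.03 to 0.09). The sample titles do not say whether replicates were matched, and single genes can differ from this. The replicate block called 0 genes at an adjusted p of 0.05 (limma), with 888 higher and 962 lower unadjusted. The cause of these shifts was not tested. TPM carry no depth, so counting error is unknown.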
